A study of Homo sapiens with 7 samples.

Results

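RNA of 10 genes of the MYC and MAX network (MYC, MYCN, MAX, MXD1, MXD3, MXD4, MXI1, MNT, MLX and MGA) was followed through dasatinib resistance in K562, an established cell line from the blast crisis of chronic myeloid leukemia that carries the BCR::ABL1 fusion. The genes were taken from the table of read counts by symbol or gene ID, so that 10 of 25702 gene IDs are described, a set picked with earlier results of these data in view. MYC RNA itself moved little, which was known when the set was picked, and 2 of the 9 network genes tested passed, the antagonist MXD1 and MLX, both lower in the early stage DasR (dasatinib resistant) intermediates, where 18.0% of all tested genes passed. Outside the 10 genes, RNA of MYCL was lower in every DasR line and 7 of 22 tested genes known as MYC targets rose in the early stage, NOP56, RRS1 and NOP16 among them, against 7.92% of all tested genes.

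The 7 libraries were 1 per line: a drug naive line and a DMSO vehicle control line, which form the control group, and lines kept in long-term culture with dasatinib, an inhibitor of ABL and SRC kinases, at 10, 15, 25, 50 or 200 nM. The DasR lines came from a single dose escalation, so each is a later stage of the same culture at another dose, and all 7 lines share the K562 background. The 10, 15 and 25 nM lines are called early stage and the 50 and 200 nM lines late stage, a grouping that the study took from clustering of these same libraries. The labels give each line's dose and whether it is DasR or control, not the stages, so 5 DasR lines against 2 controls was tested as well.

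Libraries held between 20059656 and 27844799 counted reads, so a count of 3 corresponded to 0.108 to 0.150 CPM (reads of a gene for each 1e+06 counted in its library). Pairs of lines within a group were not copies of one another, since a chi-square test of their counts gave 12.0 to 36.8 for each degree of freedom. Since no line had a repeat library, every p-value measures the spread between lines, and an interval or floor from counts covers counting error only. The libraries are bulk RNA, so fewer cells of a type and less RNA per cell cannot be told apart.

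The proteins of this network share a basic helix-loop-helix leucine zipper, and most of them bind DNA only as a heterodimer with MAX. MYC, MYCN and MYCL with MAX recruit histone acetyltransferases and elongation factors to E-box sequences. The MXD proteins, MXI1 and MNT with MAX bring SIN3 corepressors to the same sequences, MLX pairs with MXD1, MXD4, MNT and the glucose sensing factors MLXIP and MLXIPL, and MGA brings MAX into a Polycomb-like repressor complex. In chronic myeloid leukemia MYC acts downstream of BCR::ABL1, but the study cites control in the opposite direction too and left open which came first. MXD1 RNA is known to go up as myeloid cells leave the cell cycle.

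The E-box that these dimers prefer is CACGTG, which reads the same on both strands. RefSeq windows around gene starts (GRCh38.p14, whereas the counts were made on hg19) were found for 9 of the 10 genes, all but MYC, some with several windows. The motif lies in 3 of these 14 windows, 1 each of MLX, MNT and MXD4, and in 2548 of 35116, or 7.26%, of all windows of the same length. The matches are shown because they are the sequence that the network's own proteins read, beside that of ARRDC4, a gene known as a target of MLX dimers. Each run is 30 bases, 5′ to 3′ on the strand of the gene, with the E-box in capitals, and lies at chr17:42567038-42567067 (plus strand, 50 bases before the start of MLX), chr17:2401236-2401265 (minus strand, 193 before MNT), chr4:2262330-2262359 (minus strand, 238 before MXD4) and chr15:97960481-97960510 (plus strand, 210 before ARRDC4).
MLX: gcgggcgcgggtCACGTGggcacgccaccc
MNT: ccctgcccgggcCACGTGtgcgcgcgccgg
MXD4: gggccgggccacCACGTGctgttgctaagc
ARRDC4: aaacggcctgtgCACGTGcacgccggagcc
The window of MXD1, the member that moved most, holds no CACGTG in these letters. It does hold GGGCGG, the core of the GC box, which on either strand (as GGGCGG or CCGCCC) lies in 11 of the 14 windows of the network genes and in 45.0% of all windows. The 120 bases of MXD1 that begin 188 bases before its RefSeq start (chr2:69914921-69915040, plus strand) are shown with that motif in capitals. On hg19 the same bases lie at chr2:70142053-70142172, where they touch no annotated exon but lie inside the span that GENCODE gives MXD1, since a longer transcript there starts upstream.
MXD1: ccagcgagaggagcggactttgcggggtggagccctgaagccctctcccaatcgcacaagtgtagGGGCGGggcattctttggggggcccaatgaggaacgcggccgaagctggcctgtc
A match of letters is a description, and no binding was measured in these lines.

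Of the activators, MYC (gene ID 4609, hg19 chr8:128747680-128755197, plus strand) had 230 CPM without drug and 235 CPM with DMSO. It had 284, 265 and 277 CPM in the 10, 15 and 25 nM lines, and 243 and 264 CPM in the 50 and 200 nM lines. All 5 DasR lines lay above both controls, as for 25.1% of all tested genes, but the whole range spanned only 0.296 on the log2 CPM scale. The mean was 233 ± 3.37 CPM (SD, n = 2) in the controls and 275 ± 9.83 CPM (n = 3) in the early stage, which differ by 0.23 on the log2 scale (standard error 0.08; FDR 0.0511, adjusted by Benjamini-Hochberg from the quasi-likelihood test of edgeR). For the late stage, at 253 ± 14.6 CPM (n = 2), the log2 fold change was 0.10 (standard error 0.09, FDR 0.404). Neither passed the FDR threshold of 0.005 that the study set. MYCN, the neuroblastoma member of the family, had 0, 3, 1, 2, 2, 0 and 1 reads in the 7 lines from drug naive to 200 nM. No library exceeded 3 reads, so MYCN was not detectable beyond that floor, no fold was computed, and it was the only one of the 10 genes that did not reach 10 CPM in 2 libraries and was not tested.

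MAX (gene ID 4149, chr14:65472892-65569413, minus strand), the shared partner, had 58.1 and 60.9 CPM in the drug naive and DMSO lines. It had 49.2, 36.4 and 42.3 CPM in the early stage lines and 60.1 and 66.0 CPM in the late stage lines. The early stage lines were thus the lowest, without overlap with either other group, and of the late stage lines the 50 nM line lay between the controls and the 200 nM line above them. By edgeR the log2 fold change of the early stage was -0.50 (standard error 0.13, FDR 0.0197) and that of the late stage 0.06 (standard error 0.15, FDR 0.772). Late against early stage gave 0.56 (standard error 0.13, FDR 0.0387), and none of the 3 passed 0.005. Per kilobase of transcript, MYC RNA was 4.82 and 4.70 times that of MAX in the drug naive and DMSO lines, 7.03, 8.85 and 7.97 times in the 10, 15 and 25 nM lines, and 4.92 and 4.86 times in the 50 and 200 nM lines. The early stage lines stood apart in that ratio, while the late stage lines lay just above the controls.

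MXD1 (gene ID 4084, chr2:70124820-70170077, plus strand), a MYC antagonist that recruits SIN3, had the widest range of the 9 tested genes, 1.94 on the log2 CPM scale. It stood at 99.2 CPM without drug and 71.2 CPM with DMSO, against 35.2, 26.7 and 30.8 CPM in the 10, 15 and 25 nM lines and 41.6 and 49.6 CPM in the 50 and 200 nM lines. All DasR lines were below both controls, as for 23.7% of all tested genes, and the late stage lines lay between the controls and the early stage lines. In the early stage MXD1 fell 2.80-fold, or -1.48 on the log2 scale (standard error 0.18, FDR 0.00116 by edgeR). In the late stage it was 1.90-fold lower (-0.93, standard error 0.21), and the FDR of 0.0140 missed the threshold. The late stage against the early stage gave 0.55 (standard error 0.19, FDR 0.0910), and all DasR lines against control gave -1.24 (standard error 0.24, FDR 0.00916). The early stage call was lost without either of 2 lines: without the drug naive line the log2 fold change was -1.20 with FDR 0.00987, and without the 25 nM line it was -1.48 with FDR 0.00665.

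None of the other antagonists passed FDR 0.005 by edgeR in any comparison. MXD3 (gene ID 83463, chr5:176728462-176739758, minus strand) had 13.6 and 12.6 CPM in the controls, then 12.8, 13.5 and 10.5 CPM in the early stage lines and 9.51 and 9.96 CPM in the late stage lines. Both late stage lines were thus below every other line, with a log2 fold change of -0.45 against control (standard error 0.19, FDR 0.103 by edgeR). MXD4 (gene ID 10608, chr4:2249159-2263836, minus strand) had 32.2 and 24.2 CPM in the controls, then 31.5, 35.1 and 23.8 CPM in the early stage lines, and 23.4 and 14.8 CPM in the late stage lines. Its lowest value was that of the 200 nM line, and the log2 fold change of late stage against control was -0.58 (standard error 0.28, FDR 0.146). MXI1 (gene ID 4601, chr10:111967363-112047123, plus strand) had 46.6 CPM in the drug naive line and between 30.6 and 37.8 CPM in the other 6, with log2 fold changes of -0.13 (FDR 0.546) in the early and -0.29 (FDR 0.260) in the late stage. MNT (gene ID 4335, chr17:2287367-2304398, minus strand), the antagonist known to be present in cycling cells as well as resting ones, varied least of the 9 tested genes, from 30.0 to 35.7 CPM. Early stage RNA of MNT differed from control by -0.09 on the log2 scale (FDR 0.504) and late stage RNA by -0.03 (FDR 0.862), with standard errors of 0.11 and 0.12.

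MLX (gene ID 6945, chr17:40719090-40725257, plus strand), which heads a parallel set of dimers, had 51.5 and 59.2 CPM in the drug naive and DMSO lines. It had 32.4, 35.5 and 37.3 CPM in the early stage lines and 37.5 and 44.6 CPM in the late stage lines. Every DasR line was thus below both controls, as for 23.7% of all tested genes. MLX fell 1.59-fold in the early stage, or -0.67 on the log2 scale (standard error 0.11, FDR 0.00321 by edgeR). In the late stage the log2 fold change was -0.45 (standard error 0.12, FDR 0.0283), and late against early stage gave 0.22 (standard error 0.11, FDR 0.214). The early stage call was lost when any control or early stage line was left out, with FDR between 0.00936 (without the 10 nM line) and 0.0229 (without the DMSO line) and log2 fold changes between -0.75 and -0.62.

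MGA (gene ID 23269, chr15:41913332-42065279, plus strand), a very large protein that also carries a T-box, had 175 and 159 CPM in the controls. It had 207, 240 and 238 CPM in the early stage lines, and 163 and 114 CPM in the 50 and 200 nM lines. The early stage lines were above all others, and the 200 nM line was the lowest. By edgeR the log2 fold change of the early stage was 0.43 (standard error 0.16, FDR 0.0646) and that of the late stage -0.29 (standard error 0.18, FDR 0.243). The difference of the late from the early stage was -0.72 (standard error 0.17, FDR 0.0348), which missed 0.005, while DESeq2 gave FDR 0.00022.

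**Figure D1:**
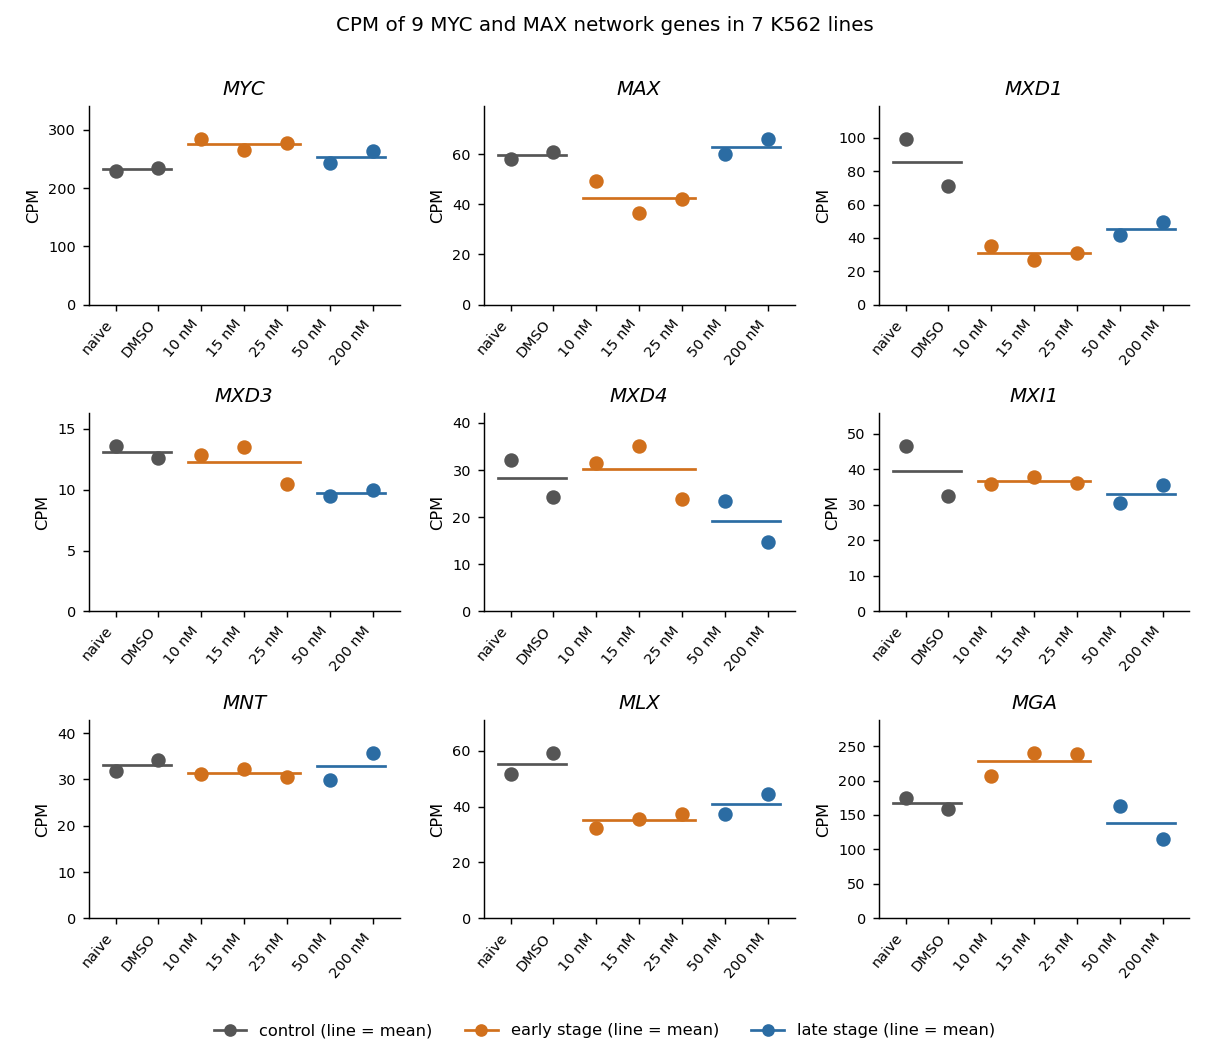
CPM (vertical axes, each from 0) of the 9 tested genes in the 7 lines (horizontal axes), with 1 point per line and a horizontal line at the mean of each group. MXD1 goes from 99.2 and 71.2 CPM in the controls down to between 26.7 and 35.2 CPM in the early stage lines, while MYC stays between 230 and 284 CPM and MNT between 30.0 and 35.7 CPM.

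Counted over the 9 tested genes, 2 passed FDR 0.005 in the early stage against control, MXD1 and MLX, both lower, where 18.0% of all 10452 tested genes passed in either direction and 10.1% as lower. At FDR 0.05, a threshold that 46.5% of all tested genes passed, MAX joined them, also lower. Without regard to any test, MYC and MGA had early stage values above both controls (35.9% of all tested genes did) and MAX, MXD1 and MLX had values below both (34.0% did). In the late stage against control none of the 9 passed FDR 0.005 by edgeR, where 7.98% of all tested genes did. At an unadjusted p under 0.05 there were 3, MXD1, MXD3 and MLX (45.9% of all tested genes), and DESeq2 called 1, MXD1, at FDR 0.005 (23.9%). At FDR 0.05, passed by 33.9% of all tested genes, MXD1 and MLX were called. MYC alone was above both controls in both late stage lines (34.3% of all tested genes), and MXD1, MXD3, MXD4 and MLX were below (33.4%). The early and late stage comparisons share the same 2 control libraries, so their values are given side by side and were not set against each other.

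Set against the early stage, the late stage lines had 0 of the 10452 genes past FDR 0.005 by edgeR (0.00%), the smallest FDR being 0.0167. At an unadjusted p under 0.05 this comparison held 3450 genes (33.0%), among them MAX, MXD1, MXD4 and MGA, and DESeq2 called 1 of the 9 network genes, MGA, at FDR 0.005 (10.9% of all tested genes). At FDR 0.05, which 12.7% of all tested genes passed, MAX was higher and MGA lower in the late stage. The 2 stages did not overlap for MAX, MXD1 and MLX, which were higher in the late stage (26.8% of all tested genes), or for MYC, MXD3, MXD4, MXI1 and MGA, which were lower (26.4%). For all 5 DasR lines against the controls, 0 of the 9 network genes passed FDR 0.005 by edgeR, where 8.08% of all tested genes did. MXD1 and MLX passed 0.05 (32.4% of all tested genes), were the 2 with an unadjusted p under 0.05 (44.2%), and were the 2 called by DESeq2 at 0.005 (25.4%). In all 5 DasR lines MYC lay above both controls (25.1% of all tested genes did), and MXD1 and MLX lay below both (23.7% did). Over the 9 genes the median log2 fold change was -0.11 in the early stage, -0.29 in the late stage and -0.13 between the stages. Over all genes tested it was 0.00 in each stage and had a size of 0.01 between the stages. There 5151 of the 10452 genes had a positive log2 fold change, so that median was negative as well.

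**Figure D2:**
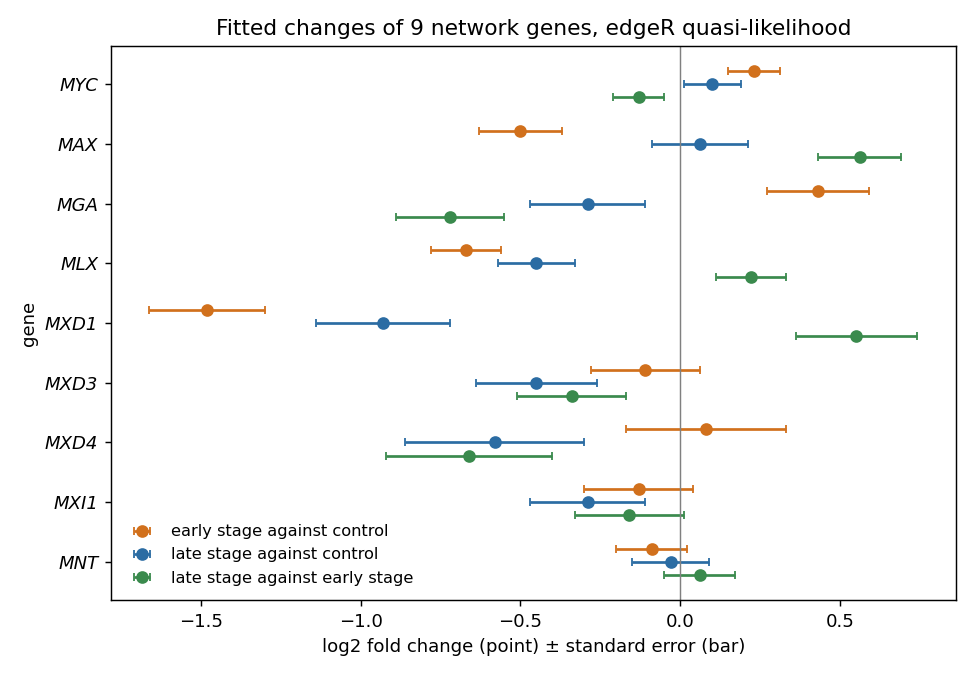
Log2 fold changes (horizontal axis) of the 9 tested genes for early stage against control, late stage against control and late against early stage, with bars of 1 standard error from edgeR. MXD1 in the early stage is farthest from 0 at -1.48, followed by MXD1 in the late stage at -0.93, and MNT lies between -0.09 and 0.06.

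Levels of the network genes were compared with one another only per kilobase, with the gene lengths of the deposited tables. MYC had a mean of 109 CPM per kilobase over the 7 lines (range 97.3 to 120), far above the next gene in every line. MAX followed at 18.5 (12.6 to 22.9), MLX at 16.6 (12.6 to 23.1) and MGA at 15.4 (9.51 to 19.9), and these 3 overlapped over the lines. MXI1 had 9.51 (7.99 to 12.2), MXD1 9.06 (4.78 to 17.8), MXD4 7.01 (3.93 to 9.30) and MNT 6.66 CPM per kilobase (6.19 to 7.38). MXD1 and MXD4 overlapped each other and both of the other two, while MXI1 was above MNT in every line. MXD3 had the lowest mean at 3.72 (3.01 to 4.29), and its range overlapped that of MXD4. MXD1 was the most abundant of the 5 MAX-binding antagonists MXD1, MXD3, MXD4, MXI1 and MNT in both controls, where it made up 36.0% (drug naive) and 32.9% (DMSO) of their summed CPM per kilobase. In the 10, 15 and 25 nM lines it made up 18.2%, 13.7% and 17.8%, below MXI1, MXD4 and MNT in each, and in the 50 and 200 nM lines 24.2% and 27.2%. The sum itself was 49.3 CPM per kilobase in the drug naive line, 38.7 in the DMSO line, and between 30.8 and 34.9 in the 5 DasR lines. Per kilobase, MYC RNA was 5.48 and 7.79 times that of MXD1 in the controls, 19.1, 23.4 and 21.3 times in the early stage lines, and 13.8 and 12.6 times in the late stage lines.

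By Pearson correlation of log2 CPM over the 7 lines, the genes most like MXD1 were ERO1A (0.997), an oxidase of the endoplasmic reticulum, the long noncoding RNA LINC01347 (0.996) and VEGFA (0.993), an angiogenic growth factor. VEGFA had 824 and 549 CPM in the controls, then 116, 76.4 and 104 CPM in the early stage lines and 204 and 252 CPM in the late stage lines. Like MXD1 it was highest in the drug naive line and lowest in the 15 nM line. For MYC the 3 most similar genes were MRRF (0.965), a mitochondrial ribosome recycling factor, MSRB1 (0.940), a methionine sulfoxide reductase, and the phosphatase PTPN2 (0.936). These are descriptions over 7 points from 3 groups, the highest of 10452 genes, and carry no test.

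Several of the 10 genes overlap neighbours on hg19, and counting could divide reads between them, since the strand setting of the counting is not given in the sources used here. SNRNP27, a splicing factor that shares 7888 bases with the GENCODE span of MXD1 on the same strand, upstream of the RefSeq start, stayed between 34.8 and 38.9 CPM. It showed none of the spread of MXD1. PSMC3IP, a recombination factor that overlaps MLX by 930 bases on the opposite strand, had 16.4 and 18.6 CPM in the 2 controls against 9.75 to 11.5 CPM in the DasR lines. By edgeR its early stage log2 fold change was -0.69 (standard error 0.14, FDR 0.00722) and its late stage one -0.85 (FDR 0.00781), so it was lower along with MLX, and how far shared reads take part in either value was not tested. FNTB, a farnesyltransferase subunit opposite MAX over 56479 bases, ranged from 15.8 to 23.7 CPM, with log2 fold changes of -0.15 (FDR 0.464) and 0.09 (FDR 0.714). MXD3 shares 2284 bases with RAB24 (34.7 to 46.4 CPM) on its own strand and 3151 bases with PRELID1 (52.0 to 124 CPM) on the other, and both had more reads than MXD3 itself.

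**Figure D3:**
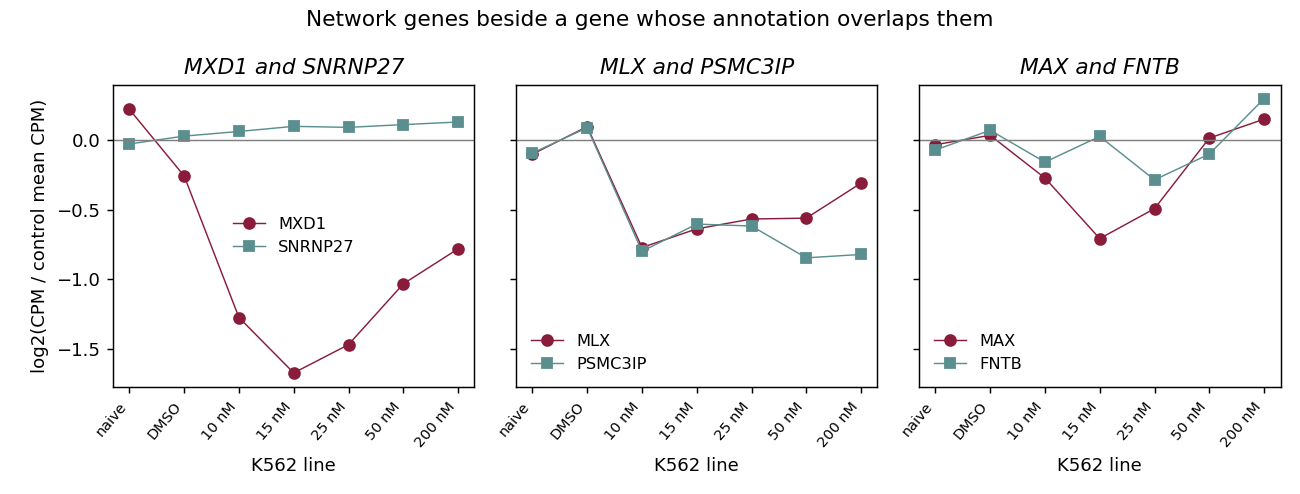
Log2 ratio of the CPM in each of the 7 lines (horizontal axes) to the mean of the 2 controls (vertical axes), for MXD1, MLX and MAX (circles) and the overlapping genes SNRNP27, PSMC3IP and FNTB (squares). SNRNP27, at 34.8 to 38.9 CPM, stays near 0 while MXD1 goes down to 26.7 CPM, and PSMC3IP lies below 0 in every DasR line, as MLX does.

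Among the 3 other genes of the MYC and MLX families, 1 fell in the early stage and 2 fell in the late stage by edgeR, where 10.1% and 4.56% of all tested genes were called lower. MYCL (gene ID 4610), the MYC gene first found in lung cancer, had 57.7 and 56.2 CPM in the controls, then 16.0, 12.0 and 11.6 CPM in the early stage lines and 15.1 and 15.8 CPM in the late stage lines. The control and DasR lines were far apart and the DasR lines close together. MYCL fell 4.35-fold in the early stage (log2 fold change -2.12, standard error 0.16, FDR 0.000186 by edgeR) and 3.75-fold in the late stage (-1.91, standard error 0.18, FDR 0.000893). Over all DasR lines its FDR was 0.000393, but 0.0103 without the drug naive line and 0.00602 without the DMSO line. MLXIPL, a glucose responsive partner of MLX, had 33.6 and 37.7 CPM in the controls, then 21.8, 35.0 and 24.4 CPM in the early stage lines and 13.1 and 9.68 CPM in the late stage lines. It fell 3.17-fold in the late stage (log2 fold change -1.66, standard error 0.25, FDR 0.00393), while the early stage gave -0.41 (FDR 0.161) and late against early stage -1.25 (FDR 0.0227, but 1.47e-05 by DESeq2). MLXIP, the other such partner, had 203 to 267 CPM and passed in no comparison, with a late stage log2 fold change of 0.28 (FDR 0.0648). The late stage calls were less firm: that of MYCL was lost without the drug naive, DMSO or 50 nM line (FDR 0.00514 to 0.0103), and that of MLXIPL without the drug naive, DMSO, 25, 50 or 200 nM line (FDR 0.00869 to 0.0238).

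**Figure D4:**
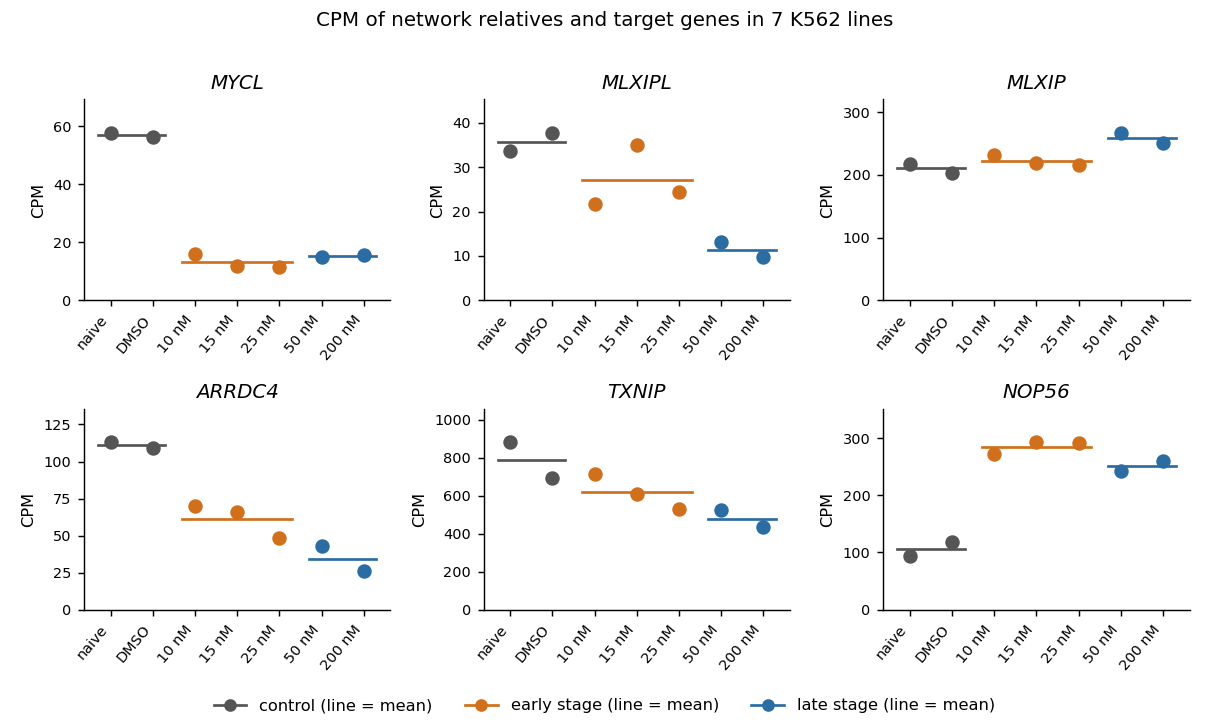
CPM (vertical axes, each from 0) in the 7 lines of MYCL, MLXIPL and MLXIP, of the MLX targets ARRDC4 and TXNIP and of the MYC target NOP56, with 1 point per line and a line at each group mean. MYCL is at 57.7 and 56.2 CPM in the 2 controls against 16.0 CPM or less in each DasR line, and NOP56 rises from 93.3 and 118 CPM to 242 CPM or more.

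Of 18 cofactors that MYC is known to use, 1 rose in the early stage by edgeR (median log2 fold change over the list 0.09), where 7.92% of all tested genes rose. None passed in the late stage (median 0.17), where 8 had an unadjusted p under 0.05 (45.9% of all tested genes), and DESeq2 called HCFC1 (FDR 2.11e-06) among others. HCFC1, a host cell factor that binds MYC, had 283 and 307 CPM in the 2 controls against 398 to 441 CPM in the DasR lines. Its early stage log2 fold change was 0.51 (standard error 0.08, FDR 0.00315 by edgeR). EP400, an ATPase of the TIP60 complex, had a log2 fold change of -0.40 in the early stage (FDR 0.00931, but 0.000297 by DESeq2), and RUVBL1, an ATPase shared by several MYC-bound complexes, had 0.71 in the late stage (FDR 0.0154, but 0.000519 by DESeq2). The call of HCFC1 was lost when any control or early stage line was left out, with FDR between 0.00611 and 0.0297.

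Of 17 SIN3 and NCOR corepressor genes, 1 rose in the early stage by edgeR (median log2 fold change 0.03), where 7.92% of all tested genes rose. For the late stage no call was made (median 0.06), 4 had an unadjusted p under 0.05 (45.9% of all tested genes), and DESeq2 called 1, BRMS1 (FDR 0.000356). BRMS1, the gene that rose in the early stage, is a SIN3 complex subunit, with 18.3 and 21.5 CPM in the 2 controls against 29.2, 37.9 and 36.9 CPM in the early stage lines (log2 fold change 0.79, standard error 0.14, FDR 0.00468 by edgeR). That call lay close to the threshold and was lost without any 1 of 6 lines (FDR 0.00581 to 0.0436), by limma voom (0.00564), and by edgeR with library totals only (0.00545), with a 1 CPM filter (0.00548) or with the libraries of those groups only (0.00545). The scaffolds themselves had small differences, with early stage log2 fold changes of -0.37 for SIN3B (FDR 0.0179) and -0.36 for NCOR1 (FDR 0.0179, but 0.00263 by DESeq2), and a value of 0.03 for SIN3A (FDR 0.820).

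Of 10 genes of the repressor complex that MGA joins, 1 fell in the early stage and 1 rose in the late stage by edgeR (medians 0.13 and 0.17), where 10.1% of all tested genes fell and 3.42% rose. RYBP, a RING1 and YY1 binding subunit, had 88.3 and 63.4 CPM in the controls, then 34.0, 29.7 and 37.9 CPM in the early stage lines and 51.0 and 61.6 CPM in the late stage lines. It fell 2.27-fold in the early stage (log2 fold change -1.18, standard error 0.18, FDR 0.00241), and late against early stage gave 0.73 (FDR 0.0428, but 0.0029 by DESeq2). CBX3, a heterochromatin protein, had 264 and 275 CPM in the 2 controls against 424 and 453 CPM in the late stage lines (log2 fold change 0.68, standard error 0.11, FDR 0.00444). E2F6, another DNA-binding subunit, had a log2 fold change of 0.47 in the early stage (FDR 0.0137, but 0.00401 by DESeq2). The call of RYBP was lost without the drug naive, 10, 15 or 25 nM line (FDR 0.00756 to 0.0176), and that of CBX3 without any 1 of 6 lines (0.00589 to 0.0348).

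None of 17 genes for enzymes that stabilise or degrade MYC protein passed FDR 0.005 by edgeR in either stage. At an unadjusted p under 0.05 there were 7 in the early and 2 in the late stage (54.2% and 45.9% of all tested genes), and DESeq2 called 4 and 0 (33.9% and 23.9%). The 3 with the smallest p in the early stage were PPP2R5A, a phosphatase subunit acting on MYC (log2 fold change -0.66, FDR 0.00628), FBXW7, the ubiquitin ligase receptor for MYC (-0.59, FDR 0.00826), and USP36, a nucleolar deubiquitinase (0.52, FDR 0.00898). PPP2R5A passed with no filter (FDR 0.00472), with the libraries of those groups only (0.00448), without the 50 or the 200 nM line (0.00441 and 0.00436) and by DESeq2 (4.84e-05), and FBXW7 (0.00129) and USP36 (0.000388) by DESeq2. CIP2A, an inhibitor of the phosphatase PP2A that protects MYC protein, had a log2 fold change of 0.55 (FDR 0.00944) and passed as higher with the libraries of those groups only (0.00368), without the 50 or the 200 nM line (0.00351 and 0.00373) and by DESeq2 (0.000577). FBXW7 had 39.6 and 35.4 CPM in the controls, then 27.0, 22.4 and 26.0 CPM in the early stage lines and 32.6 and 30.7 CPM in the late stage lines. Every DasR line was thus below the controls, as for 23.7% of all tested genes. MYC protein was not measured in these libraries.

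Of 23 genes known as MYC targets, 22 were tested, and TERT, at 1.95 to 10.1 CPM, was not. The list was chosen with earlier results of these data known, so its counts are not independent support. In the early stage 7 rose and 0 fell, with a median log2 fold change of 0.49, where 7.92% of all tested genes rose. NOP56, a box C/D snoRNP protein, had 93.3 and 118 CPM in the controls, then 272, 293 and 291 CPM in the early stage lines and 242 and 259 CPM in the late stage lines. It rose 2.68-fold in the early stage (log2 fold change 1.42, standard error 0.11, FDR 0.000191 by edgeR) and 2.35-fold in the late stage (FDR 0.000887). The ribosome assembly factors RRS1 (early stage log2 fold change 1.62, FDR 0.000412) and NOP16 (1.62, FDR 0.000597) rose along with it, as did NCL, HSPD1, NME1 and TFRC. In the late stage 6 rose and 0 fell (NCL, NOP56, NOP16, PTMA, RRS1 and TFRC; median 0.42), where 3.42% of all tested genes rose. DESeq2 called 12 and 10 as higher (16.4% and 11.5% of all tested genes), and with the libraries of those groups only edgeR called 6 in the early stage and 1, NOP56, in the late stage. None of the 22 passed FDR 0.005 by edgeR between the stages, where the median was -0.03, 6 had an unadjusted p under 0.05 (33.0% of all tested genes), and DESeq2 called 1, EIF4E (10.9%). Among the genes that did not pass in the early stage, the cell cycle kinase CDK4 had a log2 fold change of 0.13 (FDR 0.269), the cyclin CCND2 -0.15 (FDR 0.395), and lactate dehydrogenase LDHA, with 1699 CPM in the drug naive and 736 CPM in the DMSO line, -0.78 (FDR 0.0860). With 1 line left out the early stage count was between 4 (without the drug naive or 25 nM line) and 6, and the late stage count between 0 (without the drug naive line) and 5. TFRC, the transferrin receptor, also counts among the erythroid markers.

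All 4 genes chosen as targets of MLX dimers had negative log2 fold changes in both stages (medians -0.35 and -0.86), where 5251 and 5198 of the 10452 genes tested had positive ones. By edgeR 0 passed FDR 0.005 in the early stage, with 1 at an unadjusted p under 0.05 (54.2% of all tested genes) and 1 called by DESeq2 (33.9%), and 1 fell in the late stage, where 4.56% of all tested genes did. ARRDC4, an arrestin whose E-box was given with that of MLX, had 113 and 109 CPM in the controls, then 69.7, 65.7 and 48.5 CPM in the early stage lines, and 42.9 and 25.9 CPM in the late stage lines. It fell 3.27-fold in the late stage (log2 fold change -1.71, standard error 0.26, FDR 0.00411 by edgeR), and the early stage gave -0.87 (FDR 0.0182). TXNIP, its relative that restrains glucose uptake, had 883 and 696 CPM in the controls, then 718, 608 and 530 CPM in the early stage lines and 526 and 434 CPM in the late stage lines, with a late stage log2 fold change of -0.74 (FDR 0.0240). KLF10 had -0.98 (FDR 0.0305) and PFKFB3 -0.17 (FDR 0.391) in the late stage. DESeq2 called 3 of the 4 there, ARRDC4, TXNIP (FDR 0.000433) and KLF10 (0.00153), where it called 23.9% of all tested genes. The call of ARRDC4 was lost without any 1 of 6 lines, with FDR between 0.00657 and 0.0287, and with the libraries of those groups only (0.00781).

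Other RNA moved with the stages as well. The 12 erythroid markers, none of which stayed at or under 3 reads in every line, summed to 4045 and 3457 CPM in the drug naive and DMSO lines and to 10100, 11410, 8582, 5934 and 4625 CPM in the 10, 15, 25, 50 and 200 nM lines. HBG2 took the most reads over the 7 lines together (915 to 3038 CPM), though HBZ had more in the 15 nM line (2856 against 2283 CPM) and about as many in the 25 nM line (1917 against 1916 CPM). Of the 12, EPOR, HBG1 and TFRC rose in the early stage and TFRC in the late stage, where 7.92% and 3.42% of all tested genes rose. The early stage calls were lost without any 1 of 3 lines for EPOR (FDR 0.00779 to 0.0201) and of 4 lines for HBG1 (0.00638 to 0.021), and the late stage call of TFRC without any 1 of the 7 lines (0.00623 to 0.0151). The 7 megakaryocyte markers summed to 79.9 and 64.0 CPM in the controls, then 23.2, 16.8 and 22.8 CPM in the early stage lines and 69.0 and 107 CPM in the late stage lines. ITGA2B took the most reads among them with 5.96 to 99.2 CPM and fell in the early stage (log2 fold change -2.44, standard error 0.37, FDR 0.00234 by edgeR), a call lost without the drug naive, DMSO, 10 or 25 nM line (FDR 0.0052 to 0.0214), and the platelet genes GP9 and PF4 stayed at or under 3 reads in every line. The 6 monocyte and granulocyte markers summed to between 27.8 and 109 CPM, most of all from LYZ (24.6 to 101 CPM), with MPO and ELANE at or under 3 reads, and the 6 lymphocyte markers to between 8.08 and 34.0 CPM, most of all from CD3D (2.73 to 29.6 CPM), with MS4A1 at or under 3 reads. The 5 stromal markers summed to 5.93 to 19.8 CPM.

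BCR and ABL1, the partners of the fusion, had 195 and 180 CPM and 349 and 320 CPM in the controls. BCR had 1379, 1097, 934, 757 and 463 CPM, and ABL1 2557, 2021, 1686, 1390 and 918 CPM, in the 10 to 200 nM lines. ABL1 rose in both stages (log2 fold changes 2.63, FDR 0.000479, and 1.77, FDR 0.00320), as BCR did (2.59, FDR 0.000597, and 1.68, FDR 0.00455). Without either control line the early stage calls of both were lost (FDR 0.00647 to 0.00938). The late stage call of ABL1 was lost without any 1 of 5 lines (FDR 0.00546 to 0.0268), and that of BCR without any 1 of 6 (0.0052 to 0.0346) and with the libraries of those groups only (0.00772). The efflux transporter ABCG2 had 3.57 and 0.582 CPM in the 2 controls against 512, 3122, 3089, 199 and 2.41 CPM in the DasR lines, with FDR 0.00993 in the early stage by edgeR, but 3.49e-08 by DESeq2 and 0.00154 to 0.00256 by edgeR with no filter, with the libraries of those groups only or without the 50 or 200 nM line. GUSB, the reference gene of the study's PCR assays, had 102 CPM in both controls and fell in the early stage (log2 fold change -0.51, standard error 0.08, FDR 0.00314), a call lost when any control or early stage line was left out (FDR 0.00837 to 0.0252). The part of erythroid RNA, megakaryocyte RNA or BCR::ABL1 in the values of the network genes was not tested.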

How the data were processed

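The authors aligned paired-end reads to hg19 with STAR and deposited featureCounts counts per gene without normalization, from a directional library kit with depletion of ribosomal and noncoding RNA, whose strand setting in counting is not given in the sources used here. FastQC and edgeR are named in the submitters' processing notes. The deposited tables of differential expression hold log fold changes, mean log CPM, p-values and FDR of the authors' own comparisons, none of which was used. Only gene lengths in bases and symbols were taken from these deposited tables. Symbols by NCBI gene ID matched 23738 of 25702 gene IDs to RefSeq or the deposited names, and 0 count columns were left out.

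A gene was kept if 2 or more libraries reached 10 CPM, which left 10452. After TMM scaling, the quasi-likelihood test of edgeR 4.0.16 was run in R 4.3.3 with 3 group coefficients over all 7 libraries (2 coefficients for DasR against control), with Benjamini-Hochberg adjustment over all of them and a threshold of FDR 0.005. The common dispersion was 0.0260 (biological coefficient of variation 0.161). Group means ± SD are of CPM by library total, and log2 fold changes are those of the fit. Limma 3.58.1 (voom), DESeq2 1.42.0, other scalings, filters and thresholds, and leaving out each line were alternatives. The script was tested on simulated data with known fold changes.

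The members and gene lists were chosen with earlier results of these data known, so no list count is independent support. The result of 1 gene in the list of MYC cofactors is not reported here. Named were all 10 members, the 3 genes of each other list with the smallest p in early stage against control and the 2 in late against early stage, the 3 genes most correlated with MYC and with the member of widest range, and BCR, ABL1, ABCG2 and GUSB. Other genes called in a list were named from its count, and TERT, CDK4, CCND2, LDHA, ITGA2B, CIP2A, HBZ, the overlapping genes and PVT1 outside that rule, after their values were seen. Overlaps and positions came from GENCODE v44 mapped to GRCh37.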

Additional observations from a re-analysis of the deposited data

Results flagged for a closer look

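BPTF, a nucleosome remodelling subunit that serves as a MYC cofactor, had early stage lines above and late stage lines below both controls. It had 237 and 220 CPM in the drug naive and DMSO lines, 258, 297 and 302 CPM in the 10, 15 and 25 nM lines, and 208 and 159 CPM in the 50 and 200 nM lines. Its mean was 286 ± 24.3 CPM (SD, n = 3) in the early stage, 183 ± 34.8 CPM (n = 2) in the late stage and 228 ± 12.6 CPM (n = 2) in the controls. The late stage differed from the early stage by -0.65 on the log2 scale (standard error 0.14, adjusted FDR 0.0316 by edgeR), which missed 0.005, while DESeq2 gave FDR 0.000165, and no cause was tested. A check for a single line far from the others among the 5 DasR lines, made on 37 genes, found 0.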

How the results depend on the processing

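No paired analysis was possible because each line had 1 library and no line of a group has a matching line in another. With 2 or 3 lines in a group, the calls depended on single lines. The number of network genes called in the early stage was 2 and went from 0 (without the drug naive or the 25 nM line) to 2 with 1 line left out. In the late stage and in late against early stage it was 0, but 1 each by DESeq2 and 2 each at FDR 0.05. Over all DasR lines it was 0, but 2 by DESeq2 and 2 at FDR 0.05, and between 0 and 2 with 1 line left out (2 without the 200 nM line). All genes called went from 1881 in the early stage to 3548 by DESeq2, 4865 at FDR 0.05 and 187 without the drug naive line, from 834 in the late stage to 1287 with no filter, 2503 by DESeq2, 3542 at FDR 0.05, 335 with the libraries of those groups only and 30 without the drug naive line, from 0 between the stages to 295 with no filter, 1135 by DESeq2, 1328 at FDR 0.05 and 200 without the 50 nM line, and from 845 over all DasR lines to 2655 by DESeq2, 3386 at FDR 0.05, 15 without the drug naive line and 1379 without the 200 nM line. The cause was not tested.

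Among the values recomputed under the alternatives, which leave out some of the named genes, direction changed for the following. With 1 line left out, the early stage log2 fold change ranged from -0.16 (without the DMSO line; -0.04 without the 15 nM line) to 0.32 for MXD4, from -0.41 to 0.17 (without the drug naive line) for MXI1 and from -0.04 (without the DMSO line) to 0.13 for MLXIP. In the late stage it ranged from -0.56 to 0.01 (without the drug naive line) for MXI1, from -0.15 to 0.08 (without the 50 nM line) for MNT, with 0.01 under a 1 CPM filter and 0.02 under none, and from -0.24 to 0.07 (without the 50 nM line) for PPP2R5A. MNT reached -0.06 between the stages without the 200 nM line. Over all DasR lines the range was -0.39 to 0.09 for MXD4 and -0.47 to 0.11 for MXI1, both highest without the drug naive line. Scaling by TMM gave MYC a control mean of 238 CPM (238.2). Over all alternatives the early stage log2 fold change was -1.74 to -1.20 for MXD1, -0.75 to -0.62 for MLX and 0.20 to 0.26 for MYC, whose FDR was never below 0.0257. Of other genes, the early stage call of BRMS1 was lost under 4 settings beside lines left out (FDR 0.00545 to 0.00564), the late stage call of MLXIPL was lost by limma voom (FDR 0.00532), and those of RRS1 (FDR 0.00672), NOP16 (0.00516), CBX3 (0.00961), ARRDC4 (0.00781), BCR (0.00772) and TFRC (0.0117), among others, with the libraries of those groups only. Of the 10 network genes, depth limited only MYCN, at 3 reads or fewer.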

Other observations

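PVT1, a long noncoding RNA gene next to MYC, was looked at after its values were seen. It had 65.2 and 56.2 CPM in the drug naive and DMSO lines, 35.4, 8.58 and 10.5 CPM in the 10, 15 and 25 nM lines, and 24.9 and 41.5 CPM in the 50 and 200 nM lines. Every DasR line was below both controls (23.7% of all tested genes), with the 15 and 25 nM lines lowest. MYC was above both controls in every DasR line (25.1% of all tested genes). The log2 fold change of PVT1 was -1.75 in the early stage (standard error 0.57, FDR 0.0392 by edgeR) and -0.90 in the late stage (standard error 0.63, FDR 0.305), neither of which passed 0.005.

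The genes of the lists with the smallest p between the stages did not pass 0.005 by edgeR. PPP2R5A, a phosphatase subunit, had 129 and 144 CPM in the controls, then 93.0, 76.7 and 92.0 CPM in the early stage lines and 116 and 146 CPM in the late stage lines (late against early stage log2 fold change 0.58, FDR 0.0334 by edgeR and 0.00108 by DESeq2), and its early stage difference from control was at least as large (-0.66). EIF4E, the cap binding translation factor and a MYC target, had 118 and 132 CPM in the controls, then 104 to 127 CPM in the early stage lines and 153 and 177 CPM in the late stage lines (0.49, FDR 0.0390 by edgeR and 0.00272 by DESeq2). PPAT, a purine synthesis enzyme and MYC target, had 116 and 129 CPM in the controls, then 160, 180 and 187 CPM in the early stage lines and 143 and 136 CPM in the late stage lines (-0.34, FDR 0.0578), and differed more between early stage and control (0.50, FDR 0.0053). SIN3A was lower in both late stage lines (87.6 and 86.4 CPM) than in the early stage lines (102 to 121 CPM; -0.38, FDR 0.0455). ING2, another corepressor subunit, at 6.97 to 11.3 CPM, gave 0.35 (FDR 0.286).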
